A study of Arabidopsis thaliana with 9 samples.

Results

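Roots of Arabidopsis thaliana Col-0 seedlings that overexpress bHLH49 were compared with roots of seedlings with a loss-of-function mutation in the same gene, 3 arrays against 3, and wild type was measured on a further 3 arrays. All seedlings were 4 days old and had grown on Murashige and Skoog agar. The labels do not name the mutant allele, the promoter of the overexpression line or the number of independent lines, and the growth protocol speaks of kanamycin or phosphinothricin selection of transgenic seed without saying which genotypes were selected. The comparison runs across all 16722 probe sets with exactly 1 gene, here called named genes, out of 38408 probe sets on the array. Of all probe sets 702, or 1.83%, differed between both lines in a linear model (limma, Benjamini-Hochberg adjusted p below 0.05). Of the named genes 323 did so, 174 higher and 149 lower in the overexpressor. That is 1.93% of the named genes, 1.04% higher and 0.891% lower. A member of a list or family counts as measured where it has a named probe set, so others may lie on probe sets without a name. Throughout, "higher" and "lower" mean in the overexpressor against the mutant, levels are the authors' log2 values, and the wild-type level is given with each called gene.

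bHLH49 belongs to the basic helix-loop-helix transcription factors, which pair through the helix-loop-helix region and touch DNA, usually at E-box sequences, through the basic region. Plant genomes also encode helix-loop-helix proteins that lack DNA binding and hold such factors back by pairing with them, a scheme best known from the control of cell elongation. The series title places bHLH49 in the auxin response of the embryo and suspensor, while these arrays measured roots of lines labelled for it. Setting gain against loss of the factor asks which root transcripts differ most between the ends of its range, and wild type shows on which side of the normal level a gene moved.

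The 9 arrays had like distributions, with medians from 5.85 to 5.92 and lower quartiles from 3.65 to 3.70. Overexpressor and mutant arrays correlated across probe sets between 0.9882 and 0.9909, arrays of 1 genotype between 0.991 and 0.9924. No probe set of the annotation used was paired with bHLH49, so its own transcript was not analysed here and does not check the labels. Of the markers of green shoot tissue, RCA stood at a difference of 0.07, LHCB4.2 at -0.24 and LHCB4.1 at -0.27, none of which passed the test (limma adjusted p from 0.189 to 0.772; 2 at an unadjusted p below 0.05). Of all 38408 probe sets, 5817 had an unadjusted limma p below 0.05, the background for each such count below. The tissue label reads root and the source label root tips, and in such bulk samples fewer cells of a type and less RNA per cell cannot be told apart. Arrays of a genotype are labelled as repeats, and nothing says that they came from separate plants. The p-values therefore reflect only how far these arrays spread, which may be technical.

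Most differences were modest. The 323 genes had a median absolute difference of 0.64 on the log2 scale, 56 differed at least 2-fold (33 higher, 23 lower) and 8 at least 4-fold. The smallest called difference was 0.26, while the central range of all named genes, from the 5th to the 95th percentile, ran from -0.29 to 0.30. At the edge of the threshold, AT2G18750 passed with a difference of -0.33 (limma adjusted p = 0.0496; wild type 6.93) and AT1G10850 did not with 0.32 (limma adjusted p = 0.0501). For all 323 genes the arrays of both lines did not overlap, which also holds for 20.2% of all named genes. How the calls divide depends on the scaling of the arrays: centred on their medians, they gave 219 named genes higher and 111 lower in place of 174 and 149. Without 1 array, 126 of the 323 genes (75 higher, 51 lower) passed in all 9 refits and 27 in none, while all 323 kept their direction.

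**Figure D1:**
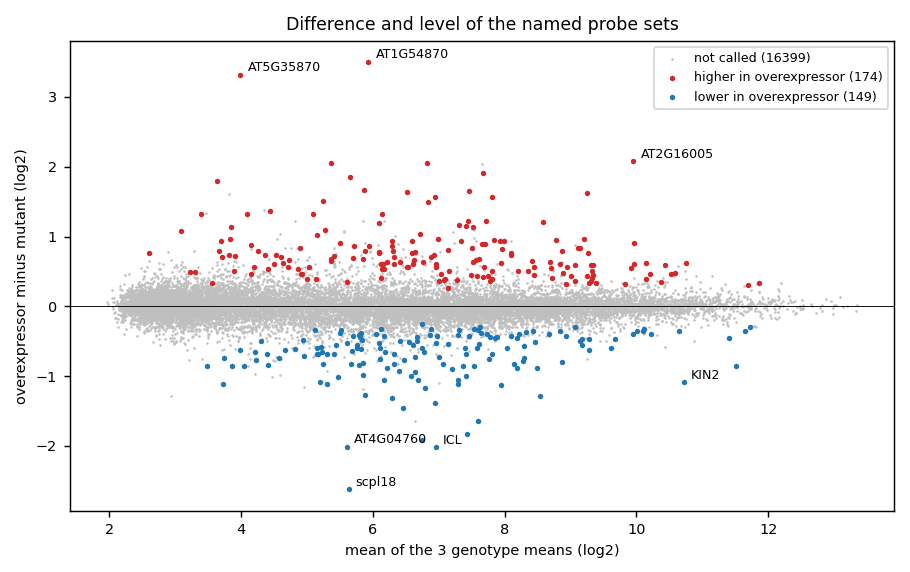
Each point is a named gene, with the mean of the 3 genotype means on the horizontal axis (log2) and the difference between overexpressor and mutant on the vertical axis (log2). Red points are the 174 genes called higher in the overexpressor and blue points the 149 called lower. Calls lie from dim to bright signal but are sparse among dim genes. Filters on the mean at the 25th and 50th percentile of all probe sets removed 9 and 98 of the 323. AT1G54870, AT5G35870 and scpl18 lie farthest from 0.

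AT1G54870, a short-chain dehydrogenase, showed the largest difference. It stood at 8.25, 8.02 and 8.31 on the overexpressor arrays, at 4.56, 4.95 and 4.57 on the mutant arrays and at 4.68, 5.11 and 4.95 in wild type. The overexpressor was thus apart from both other genotypes, which overlapped, and 11.3-fold above the mutant (log2 difference 3.5 ± 0.15, SE; limma adjusted p = 8.13e-05). AT5G35870 came next, with 5.71, 6.72 and 6.13 in the overexpressor, 2.76, 3.11 and 2.75 in the mutant and 3.1, 2.58 and 3.01 in wild type (log2 difference 3.32 ± 0.26; limma adjusted p = 0.00162). Its level in mutant and wild type lay below the arrays' lower quartiles, so the size of the difference rests on a dim signal there. AT2G16005, an ML-domain protein of the lipid-binding kind, was already bright in the mutant, at 8.80, 9.20 and 9.72, and in wild type, at 9.55, 9.71 and 8.65, and reached 11.04, 11.31 and 11.62 in the overexpressor. Its difference of 2.08 ± 0.33 passed (limma adjusted p = 0.0229), but 5 of 9 refits without 1 array lost the call, with an adjusted p up to 0.0905 without overexpressor replicate 3.

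Other leading genes encode enzymes and proteins known from stress. AT2G25150, a BAHD-family acyltransferase known for joining acyl groups to spermidine, stood at 8.04 in the overexpressor, 5.99 in the mutant and 6.42 in wild type, a 4.13-fold difference (limma adjusted p = 0.00716). AT5G39580, the class III peroxidase PRX62, stood at 7.68, 8.06 and 8.12 against 6.19, 6.35 and 6.64 in the mutant, with wild type at 6.63, 6.64 and 6.20 (log2 difference 1.56 ± 0.17; limma adjusted p = 0.00608). Mutant and wild type overlapped for this gene and the overexpressor was above both. OSM34, an osmotin of the thaumatin-like pathogenesis-related proteins, was higher by 1.62 ± 0.28 (wild type 9.12, mutant 8.51, overexpressor 10.13; limma adjusted p = 0.0333), and AT2G21640, whose transcript is used as a marker of mitochondrial oxidative stress, by 1.5 ± 0.27 (wild type 6.63; adjusted p = 0.0388). OSM34 lost its call in 7 and AT2G21640 in 8 of the 9 refits, with adjusted p up to 0.116 and 0.135 without overexpressor replicate 3.

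The next genes encode a membrane protein, possible regulators and an oil body protein. AT3G54510, a membrane protein of the ERD4 and OSCA type, had close replicates: 7.56, 7.54 and 7.60 in the overexpressor, 5.85, 6.07 and 5.83 in the mutant and 6.14, 6.01 and 6.03 in wild type (log2 difference 1.64 ± 0.08; limma adjusted p = 0.000139). AT5G37620, with the cysteine- and histidine-rich DC1 domain, was in full order, mutant at 4.80 to 4.99, wild type at 5.27 to 5.33 and overexpressor at 6.58 to 6.95 (log2 difference 1.86 ± 0.10). AT1G77640, an AP2/ERF transcription factor, was in the same order, with means of 4.6, 5.03 and 6.11 (log2 difference 1.51 ± 0.12). OLEO3, an oleosin that coats seed oil bodies, stood at 5.28 in the overexpressor, 3.91 in the mutant and 4.12 in wild type, a 2.58-fold difference (limma adjusted p = 0.00192). These 4 calls were kept in all 9 refits.

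For the remaining genes of the leading 20 no role is given here, except that AT4G30180 encodes a basic helix-loop-helix protein. AT5G01075 was higher by 2.05 (wild type 4.75), AT4G33800 by 1.91 (7.34), AT3G30730 by 1.80 (3.17), AT3G05770 by 1.66 (5.28) and AT1G16850 by 1.65 (7.08). AT1G05835 was higher by 1.57, from 7.16 in the mutant to 8.73, with wild type at 7.55. AT3G54520 was higher by 1.33 (wild type 6.0), AT4G30180 by 1.32 (3.86) and AT5G05365 by 1.32 (3.19). Of these 9 genes, AT4G30180 alone lost its call in refits, in 7 of 9, with an adjusted p up to 0.132 without overexpressor replicate 3. In the mutant AT3G30730, AT4G30180 and AT5G05365 stood at 2.98, 3.54 and 2.84, below the mean lower quartile of the arrays, 3.68, so the sizes of these differences also rest on a dim signal. The mutant mean lay below that quartile for 17 of the 174 higher genes, and the overexpressor mean for 6 of the 149 lower ones.

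In the other direction scpl18, a serine carboxypeptidase-like protein of a family that includes acyltransferases, was lowest. The overexpressor arrays read 3.87, 3.99 and 3.66, the mutant arrays 6.55, 6.53 and 6.31 and the wild-type arrays 6.73, 6.51 and 6.52. Mutant and wild type overlapped, and the overexpressor lay 6.16-fold below the mutant (log2 difference -2.62 ± 0.11; limma adjusted p = 8.13e-05). ICL, the isocitrate lyase that lets seedlings turn stored lipid into sugar through the glyoxylate cycle, stood at 5.96, 5.87 and 5.72 in the overexpressor, 7.25, 6.81 and 7.38 in wild type and 7.82, 7.86 and 7.92 in the mutant. The 3 genotypes did not overlap and wild type lay between both lines (log2 difference -2.02 ± 0.14; limma adjusted p = 0.00116). The ERD6-like sugar transporter AT4G04760 had a log2 difference of -2.01 ± 0.15, from 6.35 in the mutant to 4.34 in the overexpressor, with wild type at 6.13.

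A pair of neighbouring genes for cysteine-rich repeat secretory proteins followed. AT5G41300 stood at 5.64, 5.57 and 5.67 in the overexpressor, 7.14, 7.03 and 7.03 in wild type and 7.44, 7.67 and 7.55 in the mutant, and had the smallest adjusted p of all named genes (log2 difference -1.92 ± 0.07; limma adjusted p = 5.55e-05). AT5G41290 stood at 6.21, 6.55 and 6.16, 7.79, 7.65 and 8.04, and 8.18, 8.08 and 8.17 in the same order (log2 difference -1.83 ± 0.13; limma adjusted p = 0.00116). Both genes were in full order, with wild type between the lines and nearer to the mutant. Whether their probes read each other's transcripts was not tested.

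Several other lower genes encode enzymes. AT3G15720, a polygalacturonase-like pectin enzyme, stood at 5.52 in the overexpressor, 6.98 in the mutant and 6.88 in wild type (log2 difference -1.46 ± 0.10; limma adjusted p = 0.00107). AT3G14540, a terpene synthase, stood at 7.64, 8.93 and 9.03, and ALDH3F1, an aldehyde dehydrogenase, at 5.46, 6.77 and 6.62, in the overexpressor, the mutant and wild type. TRI, a short-chain dehydrogenase named after tropinone reductases, stood at 6.19, 7.36 and 6.81 and AT3G23510, a cyclopropane fatty acid synthase, at 7.17, 8.31 and 8.33. AT3G46500, a dioxygenase that uses 2-oxoglutarate, had its highest level in wild type, 7.83, with 7.56 in the mutant and 6.5 in the overexpressor. These 6 calls were kept in all 9 refits.

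Among the further lower genes AT5G25490, a zinc finger protein of the Ran-binding type, stood at 6.54, 6.60 and 6.45 against 8.34, 8.09 and 8.08 in the mutant and 8.19, 8.04 and 7.99 in wild type (log2 difference -1.64 ± 0.09; limma adjusted p = 0.000397). KIN2, a small protein induced by cold and abscisic acid, was bright in all genotypes, at 9.90 in the overexpressor, 10.99 in the mutant and 11.26 in wild type (log2 difference -1.09 ± 0.12; limma adjusted p = 0.00598). AT1G62500, of the lipid transfer protein type, was dim throughout, at 3.11, 4.22 and 3.85, its overexpressor mean being below that quartile. AT1G73120 stood at 4.64, 5.72 and 5.21, and AT3G62460 at 4.76, 5.88 and 5.25, each with wild type between the lines on all arrays. AT3G62460 lost its call without overexpressor replicate 2 (adjusted p = 0.0546). AT3G07720, a kelch-repeat protein, and AT1G67150 had differences of -1.11 and -1.06 with wild type at 7.27 and 6.12. Their calls were lost in 7 and in 9 of the 9 refits, with adjusted p up to 0.148 without overexpressor replicate 3 and 0.123 without mutant replicate 1.

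**Figure D2:**
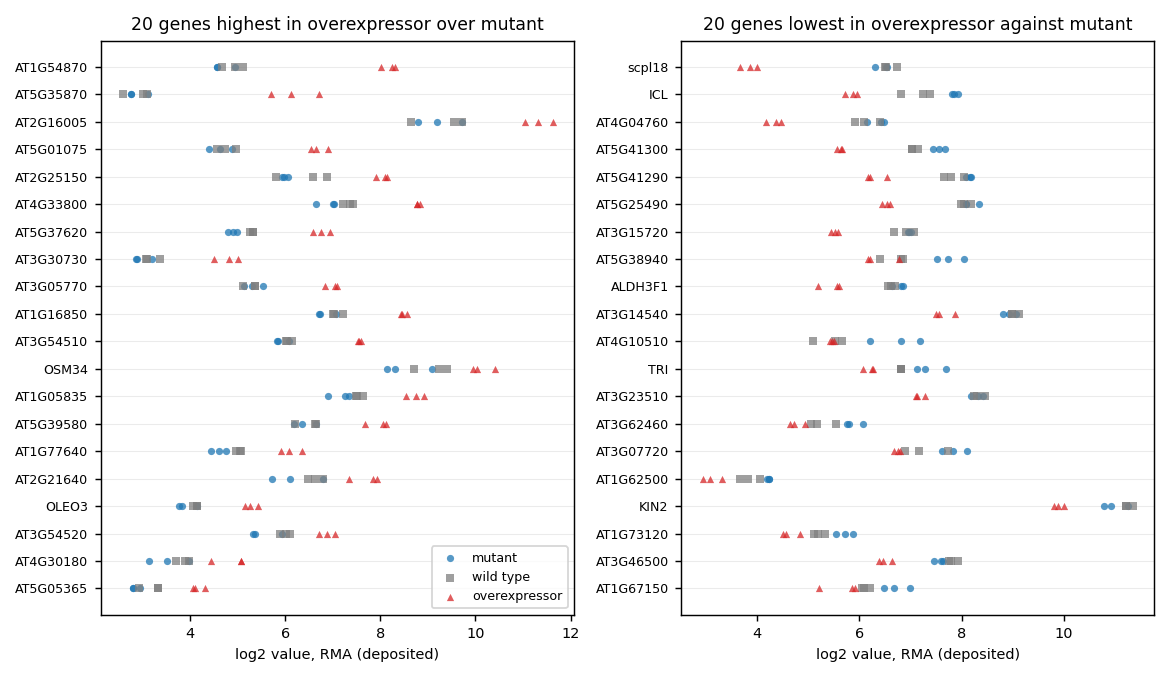
Log2 level on each of the 9 arrays for the 20 genes with the largest positive difference (left) and the 20 with the largest negative difference (right) between overexpressor (triangles) and mutant (circles), with wild type as squares. In most rows the squares lie on or near the circles; for AT4G10510 and AT5G38940 they lie on or near the triangles.

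Of these 40 genes, 31 kept their call in all 9 refits without 1 array, and 29 of these lost it in no other setting in which they were tested. The filter on signal at the 50th percentile removed 13 of the 40 genes and the one at the 25th percentile 2, so that 18 genes were tested and called in every setting. The 2 of the 31 that lost a call elsewhere were TRI and AT3G54520, whose adjusted p with the 6 arrays alone was 0.0512 and 0.0575. The 9 that lost a call in refits were AT2G16005, OSM34, AT2G21640 and AT4G30180 among the higher genes and AT5G38940, AT4G10510, AT3G62460, AT3G07720 and AT1G67150 among the lower ones.

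Wild type was nearer to the mutant than to the overexpressor for most of the 323 genes. On a scale where 0 is the mutant mean and 1 the overexpressor mean, wild type had a median place of 0.22, with 0.24 for the higher and 0.16 for the lower genes. Its mean lay beyond the mutant for 76 genes (23.5%), within 0.25 of the mutant for 103 (31.9%), in the middle range for 129 (39.9%), within 0.25 of the overexpressor for 11 (3.41%) and beyond the overexpressor for 4 (1.24%). Because the genes were chosen for the gap between the lines, a wild-type level inside the gap is partly given by the choice, and the place is a description without a test. In full order on all 9 arrays, with wild type between the lines, were 104 of the 323 genes (64 higher and 40 lower). Of all named genes 1.12% had such an order, but it requires that both lines do not overlap. That held for all 323 genes and for 20.2% of all named genes. Of these 3382 named genes without overlap, 188 were in full order, the 104 included. The same fit called 1.57% of named genes between overexpressor and wild type and 0.00598%, a lone gene, between mutant and wild type, and all 3 comparisons share arrays.

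**Figure D3:**
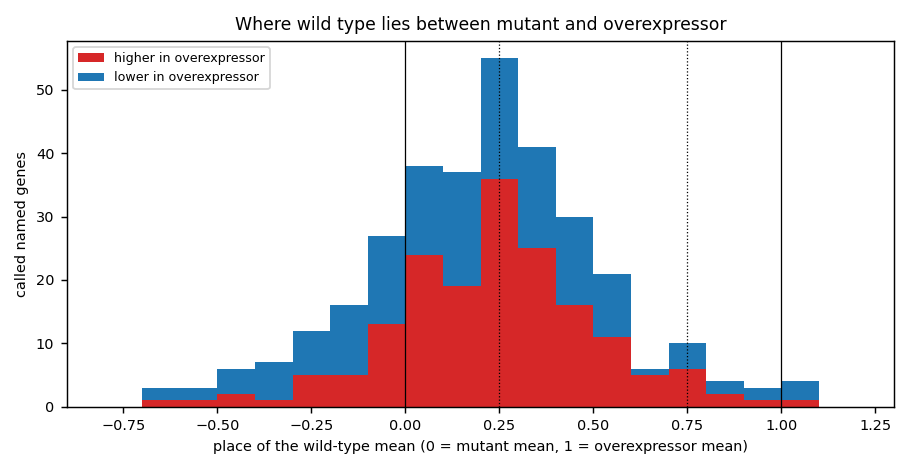
Number of called named genes (vertical axis) by the place of the wild-type mean between both lines (horizontal axis, 0 at the mutant mean and 1 at the overexpressor mean), with genes higher in the overexpressor in red and lower ones stacked on them in blue. The bulk lies between 0 and 0.5, with the median at 0.22 and few genes past 0.75.

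Wild type lay at or near the overexpressor for 15 genes, so that the mutant arrays stood apart. In 6 of them the mutant was low. AT4G27400, a late embryogenesis abundant-related protein, stood at 9.46, 9.56 and 9.25 in the mutant, at 10.17, 10.21 and 10.02 in wild type and at 10.30, 10.37 and 10.33 in the overexpressor (log2 difference 0.91 ± 0.09; limma adjusted p = 0.00383). AT3G19430, also late embryogenesis abundant-related, read 7.19, 7.33 and 6.75 in the mutant, at 8.19, 8.05 and 7.88 in wild type and at 8.06, 7.96 and 7.96 in the overexpressor. For AT3G19430 wild type and overexpressor overlapped and the mutant was below both (log2 difference 0.90 ± 0.15; limma adjusted p = 0.0278), though 5 of 9 refits lost the call. The 6 late embryogenesis abundant and dehydrin genes found by their symbols or synonyms do not include AT4G27400 and AT3G19430. Those 6 had differences between -0.05 and 0.21, and none passed in limma. AT5G15950, an S-adenosylmethionine decarboxylase of polyamine synthesis, stood at 5.43 in the mutant, 6.02 in wild type and 6.10 in the overexpressor (log2 difference 0.68 ± 0.09). The others were AT1G10810 (5.75, 6.26 and 6.36 in that order), AT5G02000 (5.84, 6.27 and 6.39) and AT1G19190 (7.02, 7.40 and 7.40), of which AT5G02000 lost its call in 2 and AT1G19190 in 9 refits.

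In the other 9 genes the mutant was high. AT2G35310, a gene of the REM group of B3-domain factors, stood at 4.41, 4.4 and 4.31 in the mutant, at 3.75, 3.62 and 3.64 in wild type and at 3.74, 3.37 and 3.48 in the overexpressor (log2 difference -0.85 ± 0.10; limma adjusted p = 0.00638). It is the member of this group that kept its call in all 9 refits. The germin-like AT5G38940 stood at 7.73, 8.04 and 7.51 in the mutant, at 6.81, 6.40 and 6.85 in wild type and at 6.78, 6.20 and 6.16 in the overexpressor. AT4G10510, a subtilisin-like protease, stood at 6.21, 7.19 and 6.81, at 5.52, 5.10 and 5.67, and at 5.46, 5.50 and 5.42 in the same order. In both genes the mutant was above 6 overlapping arrays, and the calls were lost in 4 and in 8 of 9 refits. PORB, a protochlorophyllide reductase of greening tissue, had means of 5.06 in the mutant, 4.33 in wild type and 4.31 in the overexpressor and lost its call in all 9 refits. The jacalin-type lectin AT1G52120 stood at 4.98, 4.1 and 4.14 and the peroxidase AT5G64110, PRX70, at 5.86, 5.2 and 5.18. AT3G01260, AT4G19370 and AT1G78460 had differences of -0.47, -0.82 and -0.63, with wild type at 9.01, 5.5 and 3.87. None of the 15 genes passed between mutant and wild type in the same fit, where their limma adjusted p ran from 0.134 to 0.365.

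**Figure D4:**
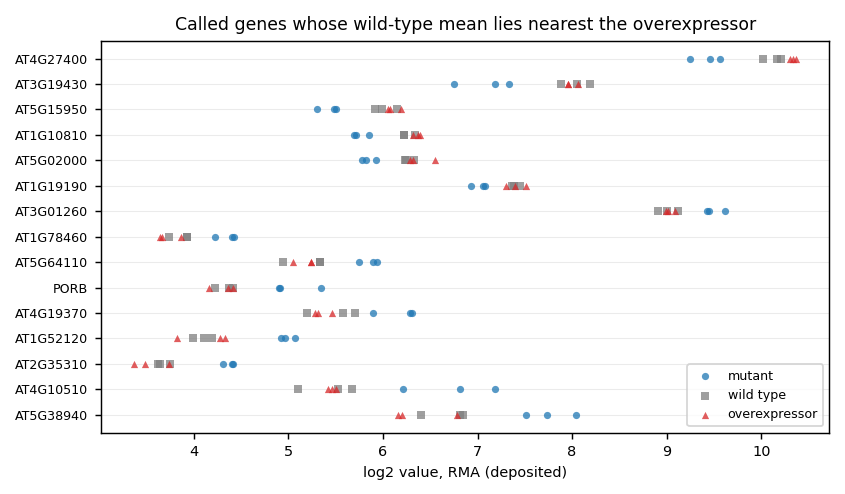
Log2 level on each of the 9 arrays for the 15 called genes whose wild-type mean lies within 0.25 of the overexpressor or beyond it, with mutant arrays as circles, wild type as squares and overexpressor as triangles. The mutant lies to the left of the other 6 arrays in the upper 6 rows and to the right in the lower 9.

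At the opposite end were genes for which wild type lay beyond the mutant. AT1G65570, the root cap polygalacturonase RCPG and the only measured member of the root cap list, stood at 6.5, 6.74 and 6.58 in wild type, at 7.5, 7.26 and 6.94 in the mutant and at 8.34, 8.04 and 8.15 in the overexpressor. The 3 genotypes did not overlap, and both lines were above wild type (log2 difference between the lines 0.94 ± 0.15; limma adjusted p = 0.0221, lost in 4 refits). The expansin EXPA4 was in the same order, with means of 7.17, 7.48 and 8.17. BGLU21, a beta-glucosidase, was below wild type in both lines by its means, with 11.91 against 11.75 for mutant and 10.89 for overexpressor, as was AT1G69526 at 7.25, 6.92 and 5.86. BGLU21 was chosen after its values were seen. Between mutant and wild type, none of AT1G65570, EXPA4, BGLU21 and AT1G69526 passed in the same fit (limma adjusted p from 0.365 to 0.629).

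Genes that act on the cell wall were described as families. A family found by name holds only genes whose symbols or synonyms carry its word, so members known by locus number alone are missing from its counts. Each count of called members stands beside the 1.93% of all named genes that were called, 1.04% higher and 0.891% lower, and since the families were chosen with results known, these shares are a description. Of 25 measured expansins, which loosen walls, 2 (8.0%) were higher and none lower, with a median difference of 0.08 where all named genes had 0. EXPA4 was higher by 0.68 ± 0.10 (limma adjusted p = 0.0191) and EXPA9, bright in wild type at 10.44, by 0.46 ± 0.07 (limma adjusted p = 0.0166); without overexpressor replicate 3 their adjusted p were 0.082 and 0.0722. EXPA8 had the widest gap of the family, 0.94 ± 0.19 with wild type at 8.25 near the overexpressor's 8.49, and did not pass (limma adjusted p = 0.0569). Of 9 xyloglucan endotransglucosylase/hydrolases, which cut and rejoin hemicellulose, 2 (22.2%) were higher and none lower, with a median of 0.12. XTH20 was higher by 0.80 ± 0.14, from a dim 3.48 in the mutant and 3.23 in wild type to 4.28, and EXGT-A3 by 0.26 ± 0.05, from 7.06 in mutant and wild type to 7.32. XTH20 lost its call in 7 refits and EXGT-A3 in 9. Of 19 glycosyl hydrolases found by name 1 (5.26%) was higher, the endoglucanase GH9C3, which read 9.30, 9.40 and 9.28 in the overexpressor, 8.10, 8.18 and 8.08 in the mutant and 8.40, 8.30 and 8.18 in wild type (log2 difference 1.21 ± 0.07; limma adjusted p = 0.000562).

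Pectin-related genes were picked out after their values were seen, so their number shows nothing about the group. The pectate lyases AT5G48900 and AT3G27400 were higher by 0.95 and 0.74, with wild type at 7.91 and 3.47, and the polygalacturonase AT1G10640 by 0.84, with wild type at 4.62. The neighbouring pectin methylesterases AT5G51490 and AT5G51500 were higher by 0.70 and 0.51, with wild type at 6.20 and 9.24, and the pectin methylesterase inhibitor AT1G62770 by 0.61, with wild type at 6.33. AT5G48900 lay in full order, 7.26 to 7.45 in the mutant, 7.82 to 8.01 in wild type and 8.26 to 8.33 in the overexpressor. The pectin methylesterase AT3G43270 and the pectin lyase-like AT3G62110 were higher by 0.54 and 0.57, with wild type at 6.12 and 6.5. AT3G15720, with a difference of -1.46 as given above, and the pectin methylesterase AT5G19730, with -0.47 and wild type at 9.35, went the other way. The call was lost in 3 refits for AT5G51500, in 4 for AT3G62110, in 8 for AT5G19730 and in 9 for AT3G43270.

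Class III peroxidases, which oxidise phenolics and other wall substrates with hydrogen peroxide, were listed by locus: 64 of 73 were measured, 5 were higher, 1 was lower (9.38% called) and the median difference was -0.00. PRX62 led, as given above. AT4G36430 (PRX49) was higher by 1.1 ± 0.21, with means of 6.17, 5.07 and, below both, 4.56 in wild type, and lost its call in 8 refits. AT2G43480 (PRX26) read 10.38, 10.39 and 10.33 in the overexpressor against 9.81, 9.74 and 9.73 in the mutant and 9.77, 9.76 and 9.73 in wild type (log2 difference 0.61 ± 0.05; limma adjusted p = 0.00188). Replicates of PRX26 were close, and mutant and wild type overlapped. AT2G18140 (PRX14) was higher by 0.61, with wild type at 4.52 between 4.19 and 4.80, and AT1G68850 (PRX11) by 0.55, with wild type at 8.51 beside the mutant's 8.52 and 5 refits without the call. PRX70, higher in the mutant as described above, lost its call in 8 refits. AT2G18150 (PRX15) had a difference of 1.61 ± 0.32 without passing (limma adjusted p = 0.0537; wild type 3.05).

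Serine carboxypeptidase-like genes went both ways. Of 33 measured members 2 were higher and 2 lower (12.1% called), with a median of 0.01. Besides scpl18, SCPL15 was lower, with 7.92, 7.87 and 7.76 in the overexpressor, 8.51, 8.66 and 8.60 in the mutant and 8.58, 8.36 and 8.36 in wild type (log2 difference -0.74 ± 0.08; limma adjusted p = 0.00598). Its near neighbour by locus number, scpl16, was higher, with 8.20, 8.53 and 8.35, 7.13, 7.40 and 6.85, and 7.73, 7.66 and 7.58 in the same order (log2 difference 1.23 ± 0.14; limma adjusted p = 0.00699). Wild type lay between the lines on all arrays for scpl16 and overlapped the mutant for SCPL15. scpl35 was higher by 0.44 ± 0.05, in full order with wild type at 9.26. These 4 calls were kept in all refits.

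Among enzymes that join sugars to small molecules, 2 of 53 UDP-glycosyltransferases found by name (3.77%) were lower and none higher, with a median of -0.01. The 2 are neighbours: UGT73C7 stood at 3.56 in the overexpressor, 4.41 in the mutant and 4.14 in wild type (log2 difference -0.85 ± 0.09; limma adjusted p = 0.0039) and UGT73D1 at 6.34, 6.88 and 6.59, the latter losing its call in 8 refits. AT1G10400 and AT3G46650, glycosyltransferases of the same kind that the word search missed, were higher, by 0.87 ± 0.16 with wild type at 6.03 and by 0.39 ± 0.07 with wild type at 5.16. Their calls were lost in 8 and in 9 refits. Both were picked out after their values were seen, so they show nothing about the direction of the family. Of 8 aldehyde dehydrogenases 1 was higher, ALDH11A3 by 0.62 ± 0.08 with wild type at 4.59, and 1 lower, ALDH3F1 (25.0% called). None of 26 cytochrome P450 genes found by name passed in limma, with 6 at an unadjusted p below 0.05 and a median of 0.09. At that unadjusted level were 5817 of all 38408 probe sets. AT5G08250, a cytochrome P450 that the word search missed, was higher by 0.72 ± 0.09, from 3.52 in the mutant to 4.25 with wild type at 3.94 (limma adjusted p = 0.0114), and kept its call in all 9 refits. None of 13 glutathione S-transferases found by name passed, with 3 at an unadjusted p below 0.05 and a median of 0.12. A further member that the word search missed, ATGSTF13, was lower, with a difference of -0.89 ± 0.12 and wild type at 8.58. It lost its call without mutant replicate 3 (limma adjusted p = 0.0502). AT5G08250 and ATGSTF13 were also picked out after their values were seen.

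Early auxin response genes were measured for 13 of 33 listed, of which 2 were higher (15.4%), none lower and 11 did not pass, with a median of 0.06. LBD29, a LOB-domain factor that acts when lateral roots form, read 8.50, 8.45 and 8.62 in the overexpressor, 7.74, 7.63 and 7.42 in the mutant and 7.70, 7.66 and 7.56 in wild type. Mutant and wild type overlapped, with the overexpressor above both (log2 difference 0.93 ± 0.09; limma adjusted p = 0.00383). WES1, which is GH3.5 and joins auxin to amino acids, was higher by 0.37 ± 0.05, with 9.53, 9.17 and 9.25 in overexpressor, mutant and wild type. It lost its call in 2 refits, with an adjusted p of 0.0611 without overexpressor replicate 2. For 2 further members both lines stood above wild type by their means alone, without passing between the lines. AT1G14120 had a mean of 3.85 in wild type, against 4.66 in mutant and 5.48 in overexpressor (limma adjusted p between the lines = 0.0727). GH3.3 had means of 7.10, 7.98 and 8.59 in the same order (limma adjusted p between the lines = 0.295). The repressor genes IAA18, IAA20, IAA29, IAA30 and IAA31 lay between -0.06 and 0.06. HAT2, a homeodomain-leucine zipper factor known as auxin-induced and chosen here after its values were seen, was higher by 0.62 ± 0.08, with wild type at 10.69 between 10.46 and 11.09, and lost its call in 3 refits.

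Peptide signals of the CLE family, listed with results known, had 2 of 16 measured members higher (12.5%) and none lower, with a median of 0.11. CLE44, whose peptide is known from the balance between vascular stem cells and xylem, stood at 6.51, 6.53 and 6.40 in the overexpressor, 5.56, 5.68 and 5.80 in the mutant and 5.49, 5.52 and 5.47 in wild type (log2 difference 0.80 ± 0.07; limma adjusted p = 0.00308). The genotypes did not overlap, and wild type lay just below the mutant. CLE14 was higher by 0.38 ± 0.07, with wild type at 6.96, and lost its call in all 9 refits. Of 17 IQD proteins, which bind calmodulin, 2 (11.8%) were lower and none higher, with a median of -0.12. IQD26 read 7.30, 7.27 and 7.28, 8.10, 8.00 and 8.03, and 8.11, 7.92 and 7.92 in overexpressor, mutant and wild type (log2 difference -0.76 ± 0.07; limma adjusted p = 0.00281). Mutant and wild type overlapped for IQD26, above the overexpressor. IQD16 was lower with a difference of -0.43 ± 0.08, wild type at 7.63, and lost its call in 8 refits.

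Of 9 measured basic helix-loop-helix factors found by name 1 was higher and 1 lower (22.2% called), with a median of -0.07, but the word search missed most called members of bHLH49's own family. AT1G72210, which is bHLH96, had a difference of 0.61 ± 0.09 with wild type at 6.02 (limma adjusted p = 0.0145, lost in 3 refits) and AT1G22490, which is bHLH94, of -0.60 ± 0.05 with wild type at 5.90 (limma adjusted p = 0.00308). The 3 measured close relatives of bHLH49 lay between -0.16 and 0.33 without a call (2 at an unadjusted p below 0.05), and the 4 patterning genes BBM, LHW, JKD and UPB1 between -0.33 and 0.11 (1 at an unadjusted p below 0.05). The missed members were picked out after their values were seen, so their number shows nothing about the family. Higher among them were AT4G30180, given above, and AT2G40200, by 0.76 ± 0.13 with wild type at 6.38 and its call lost in 7 refits. AT1G27660 was lower, with 6.22, 6.09 and 6.08 in the overexpressor, 6.83, 6.87 and 6.84 in the mutant and 6.93, 6.93 and 6.92 in wild type. The 3 genotypes of AT1G27660 did not overlap, wild type lay just above the mutant and all 9 refits kept the call (log2 difference -0.72 ± 0.05; limma adjusted p = 0.00162). AT1G31050 had a difference of -0.41 ± 0.08 with wild type at 6.9, and PIF7, known from shade responses, one of -0.74 ± 0.13 with a dim 3.76 in wild type, each losing its call in 8 refits. ATMYC1 read 5.25, 5.3 and 5.16 in the overexpressor, 5.87, 5.81 and 5.95 in the mutant and 5.78, 6.01 and 5.97 in wild type. For ATMYC1 mutant and wild type overlapped above the overexpressor (log2 difference -0.64 ± 0.08; limma adjusted p = 0.00873). TRY, a small MYB protein that keeps neighbouring epidermal cells apart in fate, was lower, with 5.93, 5.65 and 5.73 in the overexpressor against 6.36, 6.88 and 6.52 in the mutant and 6.73, 6.58 and 6.53 in wild type. Mutant and wild type overlapped (log2 difference -0.82 ± 0.14; limma adjusted p = 0.032), and the call was lost in 7 refits. AGO7, an Argonaute needed for small RNAs against auxin response factor transcripts, stood at 6.01 in the overexpressor, 7.01 in the mutant and 6.70 in wild type (log2 difference -1.0 ± 0.11; limma adjusted p = 0.00577).

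Reserve, stress and nutrient lists held few measured genes, so 1 call makes a large share beside the 1.93% of all named genes. ICL was the 1 of 4 measured genes of the glyoxylate cycle and fatty acid breakdown that passed (25.0%). The lipase gene SDP1 stood at a difference of -0.12, AIM1 at 0.11 and SDP1-LIKE at 0.20, with wild type at 8.13, 8.82 and 5.34. KIN2 was the 1 of 6 cold and abscisic acid genes that passed (16.7%). Its close copy and neighbour KIN1 stood at a difference of 0.21 with wild type at 4.01, and whether the probes of both share transcripts was not tested. None of 6 iron deficiency genes passed in limma, with 4 at an unadjusted p below 0.05 and a median of -0.44. AT3G12900, the scopoletin hydroxylase S8H of iron-starved roots, had means of 6.18 in the overexpressor, 7.82 in the mutant and 5.92 in wild type (log2 difference -1.64 ± 0.39; limma adjusted p = 0.0915), and BHLH101, of the iron-response factors, 3.94, 4.95 and 4.52 (limma adjusted p = 0.118). The cytokinin response regulator RR16 had a difference of 1.34 ± 0.27 that missed the threshold (limma adjusted p = 0.0565), with a dim 3.07 in wild type. ARR15, the other measured member of the cytokinin list, stood at a difference of 0.11 and did not pass either. EEL, a bZIP factor of seed maturation chosen after its values were seen, was higher with means of 8.09, 6.95 and 7.21 in overexpressor, mutant and wild type (log2 difference 1.15 ± 0.11; limma adjusted p = 0.00366).

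Few markers of other cell types had a named probe set. The 4 root hair genes had a median of 0.09 with none passing in limma (1 at an unadjusted p below 0.05), EXPA18 standing at 0.31 and EXPA7 at -0.01. The endodermal receptor GSO1 stood at 0.00 with wild type at 9.94, and the phloem sugar exporter SWEET11 at 1.38 ± 0.52 without passing (limma adjusted p = 0.261; wild type 4.24). The 4 cell division genes had a median of -0.11 with none passing in limma and 1 at an unadjusted p below 0.05. No xylem marker or auxin transport gene of the lists had a named probe set. RCPG and TRY, each the only measured member of its list, differed between the lines, and their part in the other differences was not tested.

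**Figure D5:**
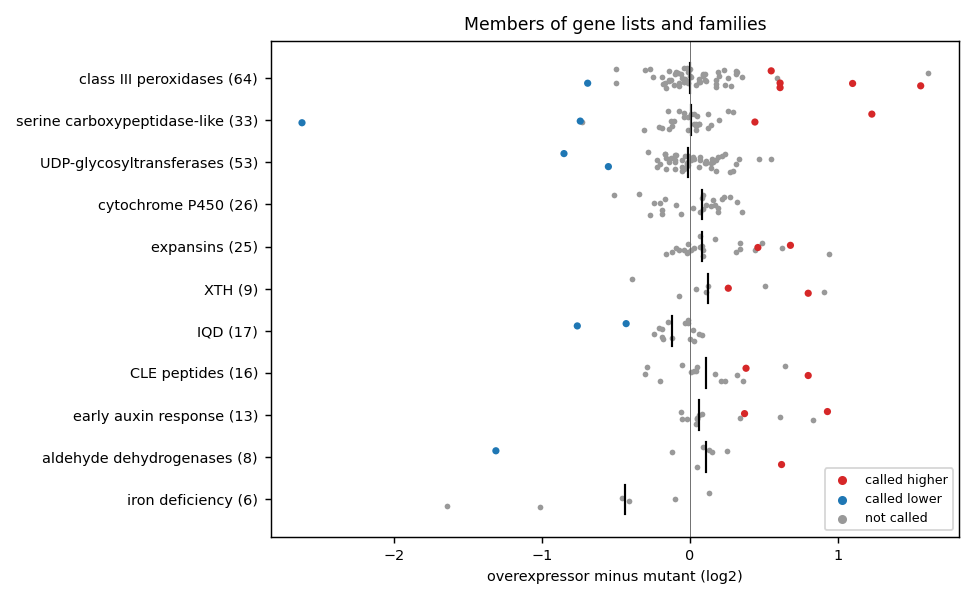
Difference between overexpressor and mutant (horizontal axis, log2) for each measured member of 11 gene lists and families, with the number measured in brackets, called members in colour and the median of each list as a black bar. Medians lie near 0 for most lists, at 0.12 for the xyloglucan enzymes (XTH) and -0.44 for iron deficiency, and called members number 0 to 6 per list.

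Called genes were spread over the genome, with 1.86% to 2.0% of the named genes called on each of the 5 chromosomes. By blocks of locus numbers, 85 of 274 blocks with 10 or more named genes had no call, and the highest share was 9.23%, in the block AT2G41, with 6 of 65 genes that went both ways. The block of bHLH49 (AT1G68920) had 2 of 58 called, AT1G68360 (0.72, wild type 5.32) and PRX11, both higher, and the next block had 2 of 59, AGO7 and AT1G69526, both lower.

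Neighbours in the annotation were both called in 12 of 10357 pairs, or 0.116%, and in all 12 pairs both went the same way, 9 higher and 3 lower. Among all neighbour pairs, called or not, 52.1% had differences of the same sign. Beside AT1G54870, AT1G54890 was higher by 0.51 with wild type at 8.12, and AT3G54510 and AT3G54520, both among the leading 20, were higher by 1.64 and 1.33. AT2G17070 and AT2G17080 were higher by 0.83 and 0.77 with wild type at 7.54 and 9.19, and AT2G43470 by 1.19 with wild type at 5.96 beside PRX26. AT5G23360 and AT5G23370 were higher by 0.50 and 0.78 with wild type at 7.67 and 6.49, and AT5G12940 and AT5G12950 by 0.56 and 0.55 with wild type at 4.19 and 9.9. The cytochrome P450 AT5G08250 lies beside scpl35. AT2G24280 was higher by 0.73 with wild type at 6.69 beside ALDH11A3, while AT4G30450 and AT4G30460 had differences of -0.86 and -0.61 with wild type at 7.88 and 5.94. The other 3 pairs are the secretory protein, glycosyltransferase and pectin methylesterase pairs given above. Calls were lost in 7 of 9 refits for AT1G54890, AT5G23360 and AT5G12940, in 6 for AT5G12950 and in 5 for AT4G30450. Some of these pairs are close copies of each other, and whether their probes share transcripts was not tested.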

How the data were processed

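Total RNA from roots was measured on 9 single-colour arrays, and the authors deposited 1 table of log2 values, 38408 probe sets by 9 arrays with 0 missing. RMA is the only step the submitters' processing notes name; the sources used here give no settings for it. The log2 values were used as deposited. Arrays have no read depth, and the precision is limited by how many there are.

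Names of probe sets came from the platform annotation and RefSeq genes of TAIR10.1, used for names and neighbours only. Of 16722 named probe sets, 16574 matched RefSeq and 148 kept the annotation's name; 759 had several genes and 20927 were not listed. They stand for 16542 different genes. Roles given for genes are general knowledge, not from these tables. No array value was left out or imputed.

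limma 3.58.1 in R 4.3.3 (lmFit, eBayes) was fitted to all 9 arrays with genotype alone (6 residual and 1.85 prior degrees of freedom). Benjamini-Hochberg adjustment ran over all 38408 probe sets. The fit was also run on simulated data of independent normal noise, which hold no shared batch, technical repeats or scaling shift. The genes described are the 20 with the largest difference each way among called genes whose 6 arrays do not overlap, all called members of lists, up to 4 called members of a family, called genes in the locus block of bHLH49 and beside it, and neighbours that were both called. Other genes are said to be chosen after their values were seen, or were taken for the place of wild type. Members and lists were chosen with earlier results of these data known. Families were found by words in symbols and synonyms, so they hold only genes so named; the peroxidase, CLE and IQD lists were added after the table was read. Alternatives were a replicate block, eBayes with trend and robust, array weights, the 6 arrays alone, 2 other scalings, 2 filters on low values, 2 sets of features and each array left out. Promoter motifs were not analysed here.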

Additional observations from a re-analysis of the deposited data

How the results depend on the processing

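Between overexpressor and mutant 702 probe sets differed (373 higher, 329 lower), with 174 named genes higher and 149 lower. These counts changed with the settings of the fit and with the arrays and features used. Why they changed was not tested. With the 6 arrays alone 260 passed (84 named higher, 55 lower). With eBayes trend and robust 1107 passed, 529 higher and 578 lower (237 named lower). Of probe sets brighter than the 50th percentile, 1211 passed (564 higher and 647 lower, or 263 and 297 named). With probe sets of 1 gene tested alone, 284 named genes were higher and 263 lower. Leaving out 1 array gave 295 to 518 probe sets, lowest without overexpressor replicate 2 and highest without wild-type replicate 3, with 86 to 137 named genes higher and 66 to 101 lower. With arrays centred on their medians, where the median difference of all probe sets moved from -0.011 to 0.022, the split was 458 higher and 251 lower, and 283 of the 323 reported named genes passed. Over 6030 recomputed differences of the 323 named genes, 0 reversed, 4358 kept their call and 1672 lost it, 1241 of these without 1 array. The filters at the 25th and 50th percentile removed 9 and 98 of the 323, which have no value there; 112 genes kept their call wherever they were tested, and 80 of the 225 tested in every setting kept it in all. Nothing in the labels says that the repeat numbers pair the arrays. Same-numbered arrays of overexpressor and mutant had deviations correlating at 0.008, -0.001 and 0.014. For same-numbered arrays of either line and wild type the values ran from -0.088 to 0.032. Such correlations do not settle whether repeats were handled together. With the replicate block 347 probe sets passed, with 98 named genes higher and 70 lower, 159 of them among the 323. The promoter motifs that had been planned were not run.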

Other observations

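The genes here were chosen after their values were seen, because their symbols tell what they encode, and their differences are overexpressor against mutant in the limma fit. Among the higher genes were MGL, a methionine gamma-lyase, with means of 8.17 in the overexpressor, 7.26 in the mutant and 7.53 in wild type (adjusted p = 0.00567), and CCR2, a cinnamoyl-CoA reductase of the lignin route, with 9.26, 8.69 and 8.90 (adjusted p = 0.00716). BZIP34, a bZIP factor, was higher by 0.73 with wild type at 7.99, TBL39, of the wall acetylation family, by 0.59 with wild type at 10.39, and ATC, a relative of the flowering regulator TFL1, by 0.65 with wild type at 8.19. ATC lost its call in 2 of 9 refits without 1 array, and the beta-glucosidase BGLU45 (0.76, wild type 5.84) in 4.

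Lower in the overexpressor were NGA3, a B3-domain factor, with means of 3.65, 4.41 and, highest, 4.6 in wild type (adjusted p = 0.00699), and the GDSL-type lipase ARAB-1, with 4.82, 5.83 and 5.78 in overexpressor, mutant and wild type (adjusted p = 0.00192). CYCJ18, a cyclin, had a difference of -0.50 with wild type at 6.80 (1 refit lost) and TAPX, the thylakoid ascorbate peroxidase, one of -0.54 with wild type at 7.34 (8 refits lost).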
